A study of Homo sapiens with 12 samples.

Results

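The SRC-family kinases FGR and LYN and 7 further kinases and adaptors of myeloid receptor signalling, FES, SYK, BTK, CSK, SKAP2, TYROBP and FCER1G, were followed in HL-60 cells treated with ATRA, palbociclib or both. The 9 genes were taken by gene symbol out of 58233 genes in the table. They were chosen from their RPKM values across the 4 treatments with earlier results of these data known, so their own values are a description. Where counts of them past a threshold are given, beside the share of all genes, they are not evidence. HL-60 is an established human acute myeloid leukaemia line of promyelocytic character, here a single wild-type line grown in RPMI with 10% FCS. ATRA (all-trans retinoic acid) binds and activates retinoic acid receptors, and palbociclib inhibits the cell cycle kinases CDK4 and CDK6. The groups were untreated cells, 100 nM ATRA alone, 500 nM palbociclib alone and the combination of both at these doses, each after 3 h and each with 3 libraries of poly(A) RNA.

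SRC-family kinases sit at the inner face of the cell membrane and phosphorylate tyrosines in short cytoplasmic motifs called ITAMs, which are carried in myeloid cells by the small adaptors TYROBP (DAP12) and FCER1G (the common Fc receptor gamma chain). SYK docks on the phosphorylated ITAM and passes the signal to adaptors and to BTK, a TEC-family kinase that acts on phospholipase C gamma. CSK switches SRC-family kinases off by phosphorylating their C-terminal tyrosine. Receptors with the opposing ITIM motif recruit phosphatases such as PTPN6 (SHP-1) that take the phosphates off again. FES is a related cytoplasmic tyrosine kinase of myeloid cells, and SKAP2 is an adaptor that links SRC-family kinases to integrins.

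FGR had the widest range of the 9 genes, SYK one of the narrowest, and the window of TYROBP held both motifs searched, so the 250 bases before annotated starts of these genes are shown, for SYK the first of 3 starts, whose window overlaps no exon. The sequences are from RefSeq on GRCh38.p14, which had entries for 8 of the 9 genes. They read 5′ to 3′ on the strand of the gene. Capitals mark AGGTCA, the hexamer that retinoic acid receptors and many other nuclear receptors recognise, usually as a pair, and GAGGAA, a purine-rich core of sites bound by PU.1-type factors, on either strand (TTCCTC is GAGGAA on the other strand).
FGR, distal start, chr1:27635186-27635435, minus strand: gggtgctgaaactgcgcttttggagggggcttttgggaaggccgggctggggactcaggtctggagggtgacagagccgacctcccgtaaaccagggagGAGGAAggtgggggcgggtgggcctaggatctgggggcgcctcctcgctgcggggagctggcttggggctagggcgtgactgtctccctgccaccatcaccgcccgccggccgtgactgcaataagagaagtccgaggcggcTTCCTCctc
FGR, proximal start, chr1:27626598-27626847, minus strand: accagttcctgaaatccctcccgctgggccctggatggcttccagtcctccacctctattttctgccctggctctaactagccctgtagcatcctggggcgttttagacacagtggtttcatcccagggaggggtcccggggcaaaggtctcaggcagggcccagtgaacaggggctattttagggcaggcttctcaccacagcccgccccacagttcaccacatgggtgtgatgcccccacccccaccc
TYROBP, chr19:35908296-35908545, minus strand: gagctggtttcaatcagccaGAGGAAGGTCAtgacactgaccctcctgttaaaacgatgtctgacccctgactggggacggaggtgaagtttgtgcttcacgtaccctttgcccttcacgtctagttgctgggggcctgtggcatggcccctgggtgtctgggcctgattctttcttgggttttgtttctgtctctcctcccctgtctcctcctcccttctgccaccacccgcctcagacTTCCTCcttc
SYK, first start, chr9:90801350-90801599, plus strand: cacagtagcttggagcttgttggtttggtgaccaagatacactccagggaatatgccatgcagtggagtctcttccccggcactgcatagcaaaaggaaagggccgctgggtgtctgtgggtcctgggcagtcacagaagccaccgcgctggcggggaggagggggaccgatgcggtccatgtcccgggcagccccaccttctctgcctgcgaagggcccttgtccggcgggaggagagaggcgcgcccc
The distal FGR window held GAGGAA on each strand, 151 and 9 bases before the start, and no AGGTCA. The proximal FGR window, inside the gene, and the SYK window shown held neither motif. The windows of the other two SYK starts held GAGGAA, at 82 and 32 bases in one and at 47 bases in the other. In TYROBP an AGGTCA 225 bases before the start overlapped a GAGGAA at 230, and a further GAGGAA lay on the other strand at 10. Of all 35116 RefSeq promoter windows of this length, 12.1% held AGGTCA and 23.6% held GAGGAA on either strand. Direct repeats of AGGTCA spaced by 1, 2 or 5 bases were in 0.0171%, 0.00285% and 0.00285% of the windows. These matches describe letters and not binding. GENCODE v44 gives FGR 6 different transcript starts, and the values per gene do not tell which was used.

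The deposited values are RPKM, read counts scaled to the length of the gene and the size of the library, which the authors rounded to whole numbers, so a 0 stands for any level too low to round up to 1. The values of a library summed to 358455 to 390247 RPKM. These sums are not read totals and the table does not give the read depth of each library, so the precision is given by the spread over the 3 libraries of a group. No pair of libraries was identical. Of the HL-60 promyelocyte markers 6 of 6 were above 0 in at least 1 library. Their summed levels were 1539 to 1764 RPKM in untreated cells, 1377 to 1574 with ATRA, 1688 to 1924 with palbociclib and 1393 to 1652 with both. MPO made up most of these sums, with 1254 to 1411 RPKM in untreated cells, and ELANE had 0 or 1 RPKM in every library. With ATRA the means of MPO, CTSG and MYB were lower than in untreated cells (MYB 28.3 against 58.7 RPKM). Those of AZU1 and PRTN3 were higher (PRTN3 276.0 against 222.3 RPKM). All B cell and erythroid markers were listed at 0, as were CD3D, CD3E and CD2 of the T and NK cell list, and CD14, LTF, MMP8 and FCGR3B of the mature monocyte and neutrophil list. NKG7 had 5 to 8 RPKM in untreated and palbociclib libraries, 6 to 10 with ATRA and 7 to 10 with both, and CXCR2 had 2 to 3, 3 to 4, 2 to 4 and 3 to 4 RPKM in untreated, ATRA, palbociclib and combination libraries. Genes used to check the treatments were summed as well. The ATRA check genes, of which CYP26A1 and RARB were listed at 0 throughout, gave 33 to 37 RPKM in untreated cells, 164 to 175 with ATRA, 40 to 49 with palbociclib and 180 to 193 with both. CEBPE made up most of these sums, with 34, 32 and 37 RPKM untreated, 116, 116 and 118 with ATRA, 48, 39 and 47 with palbociclib and 131, 131 and 135 RPKM with both. DHRS3 and HIC1 had 0 or 1 RPKM in every untreated and palbociclib library. The palbociclib check genes gave 94 to 95, 75 to 78, 42 to 49 and 47 to 58 RPKM.

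In untreated cells the kinases BTK, CSK and SYK were the most abundant of the 9 genes and FGR was not seen. BTK (chrX:101349338-101390796) had 45, 43 and 40 RPKM, with a mean of 42.7 ± 2.52 (SD, n = 3). CSK (chr15:74782080-74803197) followed at 36.0 ± 1.0 (SD, n = 3) and SYK (chr9:90801787-90898549) at 28.3 ± 2.08 (SD, n = 3). The libraries of these neighbours in the order did not overlap. LYN had 19.3 ± 0.577 and FCER1G 18.3 ± 3.79 RPKM (SD, n = 3 each), and here the libraries overlapped. SKAP2 at 10 RPKM in each library and FES at 7, 7 and 10 RPKM also met. TYROBP had 3, 3 and 5 RPKM, and FGR was listed at 0 in all 3 libraries. These coordinates and those below are of GENCODE v44 on GRCh38, where all 9 genes are protein coding.

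FGR (ENSG00000000938, chr1:27612064-27635185) was the gene of the set with the largest difference in level between treatments. With ATRA alone it had 23, 39 and 48 RPKM, and with the combination 27, 44 and 53 RPKM. It was listed at 0 in every untreated library and at 0, 0 and 1 RPKM with palbociclib alone. All 6 libraries with ATRA lay above all 6 without it. No fold is given against groups at or near 0 in a table without counts. Mean levels were 36.7 ± 12.7 with ATRA and 41.3 ± 13.2 RPKM with both (SD, n = 3 each). With ATRA the level of FGR thus lay among those of BTK (43, 42 and 39 RPKM), CSK (40, 36 and 38 RPKM) and LYN, whose libraries its range overlapped. The library numbered 1 had the lowest FGR level in both ATRA groups. Between libraries of the same number, the combination was above ATRA alone by 4, 5 and 5 RPKM, a mean of 4.67 ± 0.577 (SD, n = 3 pairs). The spread within either group was larger. Same-numbered libraries of these groups deviated together (r of 0.782 to 0.908 over the tested genes). The spread within a group therefore does not measure the precision of the paired differences. All 9 genes passed the filter (5 RPKM or more in 3 or more libraries), FGR only through the libraries with ATRA. In bulk RNA, a change in the number of cells with a transcript and a change in transcript per cell cannot be told apart.

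LYN (ENSG00000254087, chr8:55879835-56014169), the SRC-family kinase with a measurable level in untreated cells, differed in the same libraries by a smaller amount. It had 19, 20 and 19 RPKM in untreated cells and 30, 33 and 32 RPKM with ATRA. With palbociclib it had 18, 21 and 20 RPKM, and with the combination again 30, 33 and 32 RPKM. The libraries with ATRA did not overlap those without it, and each combination library had the same value as the ATRA library of its number. The mean with ATRA was 1.64 times that of untreated cells, a difference of 0.71 (SE 0.07) in log2(RPKM + 0.1), the scale of all log2 differences here. With palbociclib alone the difference was 0.02 (SE 0.07).

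**Figure D1:**
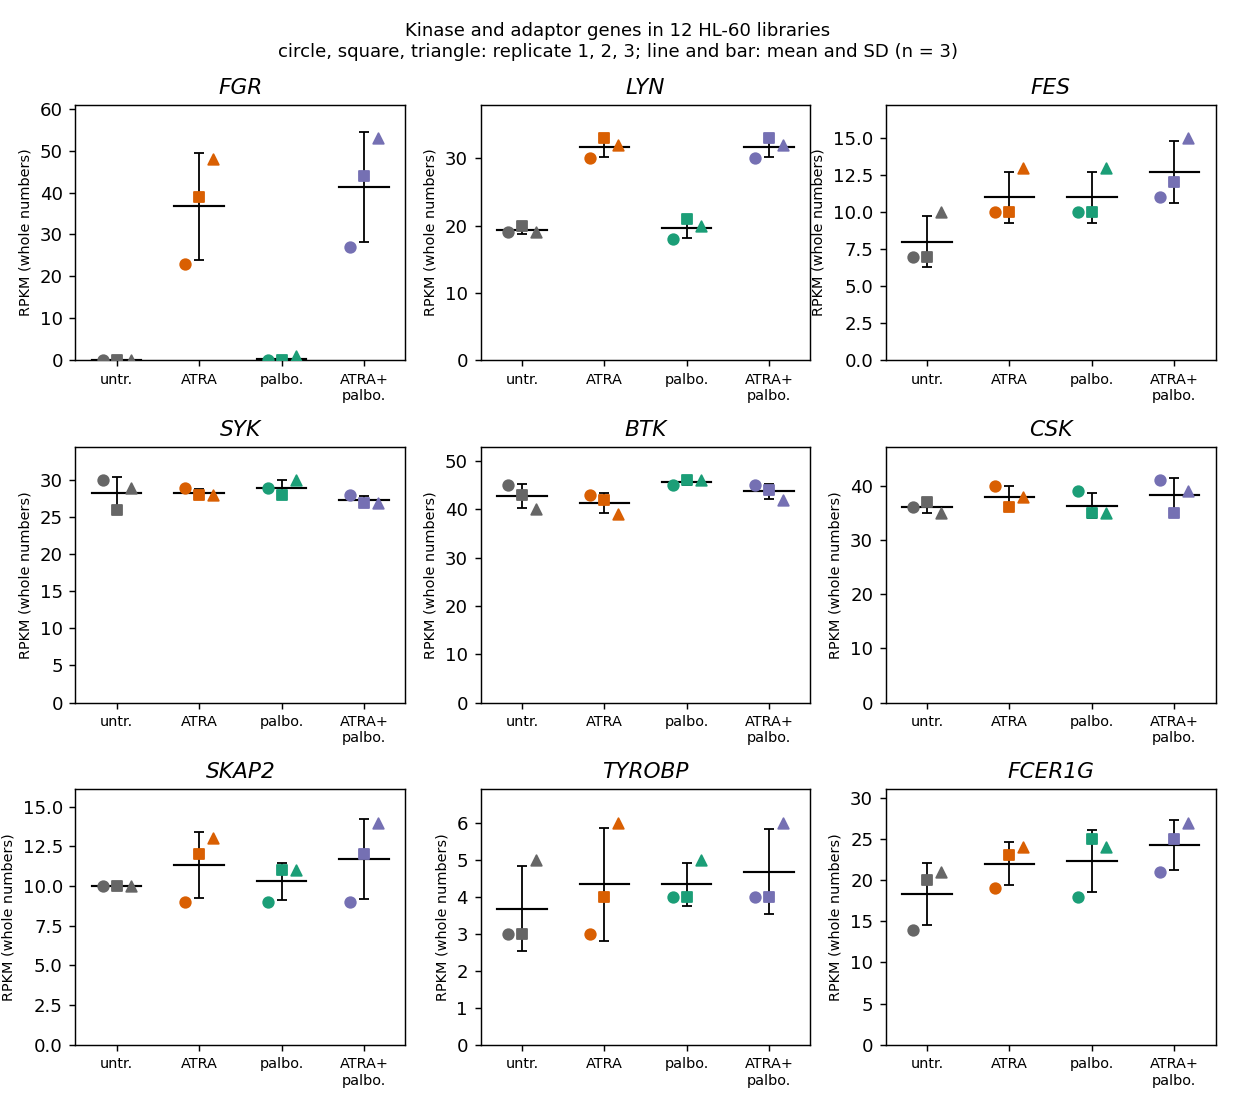
RPKM of the 9 genes (y axis, whole numbers, from 0, own scale in each panel) in untreated, ATRA, palbociclib and combination libraries, with a circle, square and triangle for replicates 1, 2 and 3 and a line and bar for mean and SD (n = 3). FGR lies between 23 and 53 in the 6 libraries with ATRA and at 0 or 1 in the others, LYN between 30 and 33 against 18 to 21, and the other 7 genes have overlapping libraries in most groups.

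FES, FCER1G and TYROBP had somewhat higher means in every treated group, with overlapping libraries in most comparisons. FES (ENSG00000182511, chr15:90883695-90895776) had 7, 7 and 10 RPKM untreated, 10, 10 and 13 with ATRA, 10, 10 and 13 with palbociclib and 11, 12 and 15 RPKM with both. Its log2 difference from untreated cells was 0.46 (SE 0.18) with either agent and 0.66 (SE 0.18) with both. The combination alone did not overlap the untreated libraries. In FES the library numbered 3 was the highest of each group.

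FCER1G (ENSG00000158869, chr1:161215234-161220699) had 14, 20 and 21 RPKM untreated, 19, 23 and 24 with ATRA, 18, 25 and 24 with palbociclib and 21, 25 and 27 RPKM with both. The log2 differences from untreated cells were 0.28, 0.29 and 0.42 in that order of treatments, each with an SE of 0.18. The library numbered 1 was the lowest of every group, and all 3 treated groups overlapped the untreated one. TYROBP (ENSG00000011600, chr19:35904401-35908295), the other ITAM adaptor, had 3, 3 and 5 RPKM untreated, 3, 4 and 6 with ATRA, 4, 4 and 5 with palbociclib and 4, 4 and 6 RPKM with both. At this level a rounding step of 1 RPKM is a large share of the value. Its log2 differences of 0.22, 0.27 and 0.36 had an SE of 0.27.

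SYK, BTK, CSK and SKAP2 had nearly the same levels in all 4 groups. SYK (ENSG00000165025) had 30, 26 and 29 RPKM untreated, 29, 28 and 28 with ATRA, 29, 28 and 30 with palbociclib and 28, 27 and 27 RPKM with both. BTK (ENSG00000010671) had 45, 46 and 46 RPKM with palbociclib and 45, 44 and 42 RPKM with both, beside the untreated and ATRA values given above. Its log2 differences from untreated cells were -0.05 with ATRA, 0.10 with palbociclib and 0.03 with both, each with an SE of 0.06. These groups overlapped for both kinases.

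CSK (ENSG00000103653), the inhibitor of SRC-family kinases, had 36, 37 and 35 RPKM untreated, 39, 35 and 35 with palbociclib and 41, 35 and 39 RPKM with both. Its log2 difference with ATRA was 0.08 (SE 0.07). SKAP2 (ENSG00000005020, chr7:26667068-26995239) had 10 RPKM in all untreated libraries, 9, 12 and 13 with ATRA, 9, 11 and 11 with palbociclib and 9, 12 and 14 RPKM with both. The library numbered 1 was the lowest in its treated groups, and the log2 difference was 0.16 (SE 0.17) with ATRA and 0.20 (SE 0.17) with both.

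**Figure D2:**
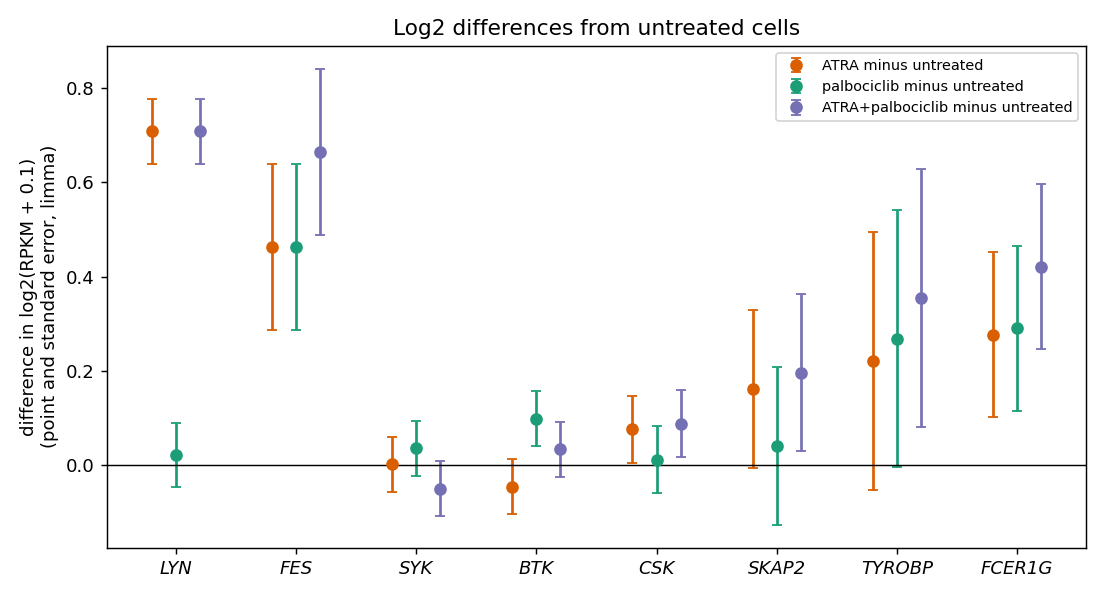
Differences from untreated cells in log2(RPKM + 0.1) (y axis) for 8 of the 9 genes (x axis), with points for the estimate and bars for the standard error from limma over 12 libraries, coloured by treatment. FGR is not drawn because it was listed at 0 in untreated cells. LYN lies at 0.71 with ATRA and with both and at 0.02 with palbociclib, and FES at 0.46, 0.46 and 0.66.

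The comparisons with untreated cells share the untreated libraries, so their values are only set side by side. At an adjusted p below 0.001 from limma, 2 of the 9 genes, FGR and LYN, were counted with ATRA alone, beside 4.72% of all 7820 genes tested. With the combination 2 were counted, beside 8.04% of all genes. With palbociclib alone 0 of 9 were counted, beside 0.499% of all genes, and 1 of 9 had an unadjusted p below 0.05 from limma, beside 17.4% of all genes. Nothing is read from these counts or from those below for the 9 genes, since the values of these libraries chose the genes, and FGR could pass the filter only by being high with ATRA. The median log2 difference of the 9 genes was 0.22 with ATRA, 0.10 with palbociclib and 0.36 with both, beside medians over all genes of -0.01, 0 and -0.01. In the median with ATRA and with both, FGR enters by a fitted value that depends on the pseudocount, and a median does not move with its size. The libraries of 2 genes (FGR and LYN) did not overlap the untreated ones with ATRA, beside 29.6% of all genes. With palbociclib this held for 0 genes, beside 15.2% of all genes, and with the combination for 3 (FGR, LYN and FES), beside 36.0%.

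Between the combination and ATRA alone the libraries of all 9 genes overlapped. In the fit without pairing 0 of 9 were counted, and 0 had an unadjusted p below 0.05 from limma, where 0% and 3.67% of all genes did. The log2 difference was 0.00 (SE 0.07) for LYN, 0.18 (SE 0.76) for FGR, 0.20 (SE 0.18) for FES and 0.14 (SE 0.18) for FCER1G. The SE of FGR takes in the spread of all groups. These include the palbociclib libraries at 0, 0 and 1 RPKM, which are not in this comparison. Libraries of the same number showed small differences of one sign in several genes. The combination was higher by 4, 5 and 5 RPKM for FGR and by 1, 2 and 2 RPKM for FES. It was higher by 2, 2 and 3 RPKM for FCER1G and for BTK, and lower by 1 RPKM in each pair for SYK. With a replicate block, 0 of 9 were counted and 2 had an unadjusted p below 0.05 from limma, both higher, beside 8.22% of all genes. Apart from FGR, the differences listed are steps of 1 to 3 in values rounded to whole numbers. The libraries of 0 of the 9 genes were free of overlap between these groups, beside 3.39% of all genes. For the departure from additivity, which sets what palbociclib did in the presence of ATRA against what it did in its absence, 0 of 9 were counted and 0 had an unadjusted p below 0.05 from limma, where 0% and 3.02% of all genes did. With the block 1 had such a p, a negative departure, beside 7.98% of all genes. The median departure was -0.09 log2 units, beside a median of 0 over all genes. The estimates were negative in 9 of 9 genes, beside 3834 of all 7820 genes tested. Some lay close to 0, such as CSK at -0.001 (SE 0.101) and SKAP2 at -0.005 (SE 0.236). The estimate of FGR depends on the pseudocount and on the palbociclib library at 1 RPKM.

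Between the combination and palbociclib alone FGR and LYN were the genes whose libraries did not overlap, 2 of 9, beside 18.1% of all genes. The same 2 were past the threshold, beside 3.11% of all genes. LYN differed by 0.69 (SE 0.07) in log2 units, and by 12 RPKM in each of the 3 pairs of the same number. The other 7 genes had log2 differences between -0.08 (SE 0.06) for SYK and 0.20 (SE 0.18) for FES.

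Around these 9 genes, 121 other genes of the pathway were listed in 5 groups, and 64 of them reached the filter. The lists, the filter and the threshold were chosen with earlier results of these data known, so counts of these genes are a description. ATRA raised 12 of the 64 and lowered 0 at an adjusted p below 0.001 from limma. The combination raised 16 and lowered 0, and the 16 contained the 12. CD300LB among the 12, and CD300LB, CD300A, PECAM1 and SH3BP2 among the 16, reached 5 RPKM only in libraries with ATRA and so could be tested only by being high there. Without them the counts are 11 and 12. Palbociclib alone gave 0 calls from limma, and 16 of the 64 had an unadjusted p below 0.05. The median log2 difference over the 64 genes was 0.13 with ATRA, 0.10 with palbociclib and 0.16 with both. With ATRA the libraries of 34 genes did not overlap the untreated ones, 26 higher and 8 lower. With palbociclib these numbers were 12, 10 and 2, and with the combination 33, 25 and 8. The shares of all genes given above apply to these counts too.

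The other cytoplasmic tyrosine kinases did not pass. Of 19 listed, 7 were tested and 0 were called by limma with ATRA or with both, while 5 of the 7 had an unadjusted p below 0.05 in each of these comparisons, beside 33.1% of all genes with ATRA and 40.5% with both. A further 7 were listed at 0 in all 12 libraries, among them the SRC-family members SRC, LCK and BLK. The SRC-family genes FYN and YES1, named after their values were seen, were low. FYN had 7, 8 and 6 RPKM untreated, 5 in each ATRA library, 8, 9 and 9 with palbociclib and 6, 5 and 5 RPKM with both, and its log2 difference with ATRA was -0.47 (SE 0.11, adjusted p = 0.0124 from limma). YES1 had 6, 5 and 5 RPKM untreated and 4, 3 and 3 RPKM with ATRA.

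Regulators of the kinases gave 3 calls among 16 tested of 22 listed, with ATRA and with both, all higher. SLA (SLAP), an adaptor that lowers SRC-family and receptor signalling through ubiquitin ligases, had 4, 6 and 5 RPKM untreated and 32, 41 and 39 RPKM with ATRA. With palbociclib it had 5, 7 and 7 RPKM and with both 33, 42 and 38 RPKM. The ATRA libraries lay far above the others, and SLA rose by 2.89 log2 units (SE 0.17, adjusted p = 1.54e-06 from limma). SLA overlaps TG on the opposite strand, and although htseq-count by default counts by strand, whether the library kit marked strand is not given in the sources used here. PTPN6, the phosphatase SHP-1, had 45, 49 and 48 RPKM untreated, 73, 80 and 81 with ATRA, 54, 55 and 59 with palbociclib and 78, 85 and 86 RPKM with both. It rose by 0.72 log2 units with ATRA (SE 0.06, adjusted p = 2.63e-05 from limma) and by 0.81 with both. DOK2, a docking protein that dampens tyrosine kinase signals, had 16, 19 and 18 RPKM untreated and 30 RPKM in each ATRA library, a rise of 0.76 log2 units (SE 0.07, adjusted p = 3.53e-05 from limma).

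Among the receptors called, CD300LB, CD300A and PECAM1 reached 5 RPKM only in libraries with ATRA. They could be tested only by being high there. Of the 23 listed receptors that signal through an ITAM, 5 were tested and 7 were listed at 0 throughout, and CD300LB, which pairs with TYROBP, was the single call. It was listed at 0 in all untreated and palbociclib libraries and had 2, 4 and 5 RPKM with ATRA and 2, 5 and 5 RPKM with both. Of the 16 inhibitory ITIM receptors 8 were tested, and 1 was called with ATRA and 4 with both, CD300A and PECAM1 among them. SIRPA, the receptor of CD47, had 24, 23 and 24 RPKM untreated and 31, 33 and 35 RPKM with ATRA, a rise of 0.48 log2 units (SE 0.06, adjusted p = 0.000402 from limma). CD300A had 2, 3 and 3 RPKM untreated, 8, 16 and 17 with ATRA and 9, 18 and 20 RPKM with both. Its log2 difference was 2.26 with ATRA and 2.45 with both (SE 0.35 each). The library numbered 1 was the lowest of the CD300A values in both ATRA groups, as for FGR. LILRB4 had 7, 9 and 9 RPKM untreated and 13, 18 and 17 RPKM with both, and PECAM1 had 2 in each untreated library and 4, 5 and 6 RPKM with both. LILRB4 rose with both by 0.93 log2 units (SE 0.15, adjusted p = 0.000887 from limma), and the difference of PECAM1 was 1.26 (SE 0.20). A call with both and none with ATRA alone does not show a difference between the treatments. Tested directly against ATRA, 0 of the 64 genes passed in limma and 1 had an unadjusted p below 0.05. With a replicate block 0 passed and 6 had such a p, beside the 8.22% of all genes given above. SIRPA, LILRB4 and the CD300 genes have close relatives with which reads could be shared.

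**Figure D3:**
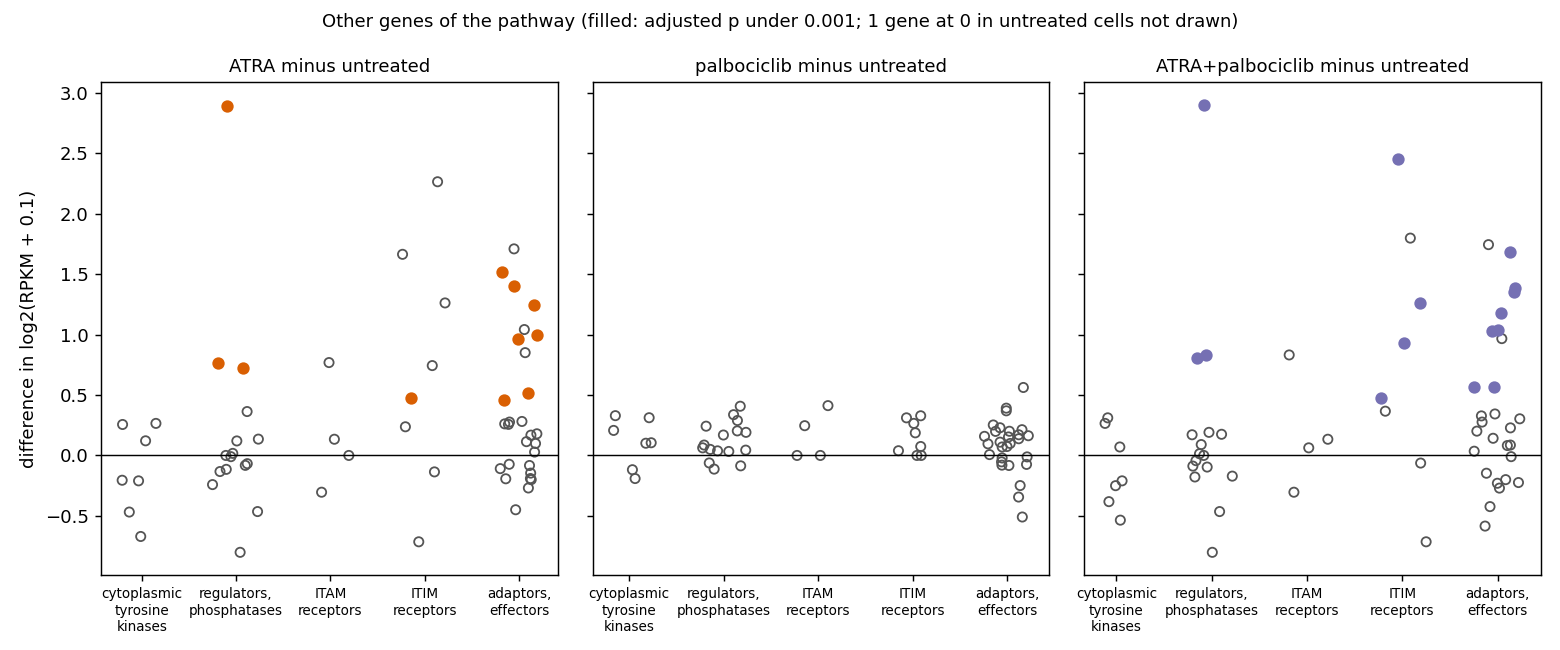
Differences from untreated cells in log2(RPKM + 0.1) (y axis) for the tested genes of the 5 groups (x axis), 1 point a gene, in 3 panels for ATRA, palbociclib and both. Filled points have an adjusted p below 0.001 from limma, and CD300LB is not drawn because it was listed at 0 in untreated cells. All filled points lie above 0, the highest is SLA at 2.89 with ATRA and at 2.90 with both, and the palbociclib panel has none.

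Downstream adaptors and effectors, the largest list, held the most calls, with 7 of 28 tested genes higher with ATRA and 8 with both, out of 41 listed. SH2B3 (LNK), an adaptor that restrains cytokine signalling, had 14, 14 and 13 RPKM untreated, 33, 39 and 37 with ATRA, 14, 16 and 16 with palbociclib and 33, 40 and 35 RPKM with both, and rose by 1.40 log2 units with ATRA (SE 0.09, adjusted p = 2.59e-06 from limma). LCP2 (SLP-76), the scaffold that SYK phosphorylates, had 8, 9 and 9 RPKM untreated and 18, 22 and 22 RPKM with ATRA, a rise of 1.24 log2 units (SE 0.11, adjusted p = 2.47e-05 from limma). SH2B3 overlaps ATXN2 and LCP2 overlaps C5orf58 on the opposite strand. PRAM1, a myeloid adaptor related to FYB, had 4, 6 and 4 RPKM untreated and 12, 13 and 15 RPKM with ATRA, and rose by 1.51 log2 units (SE 0.17, adjusted p = 0.000142 from limma).

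PIK3R5, the regulatory subunit of PI3K gamma, had 16, 15 and 15 RPKM untreated and 30 RPKM in each ATRA library, a rise of 0.96 log2 units (SE 0.05, adjusted p = 8.85e-07 from limma). Its catalytic partner PIK3CG, named after its values were seen, had 11, 13 and 12 RPKM untreated and 27, 49 and 46 RPKM with ATRA and was not called. PSTPIP2, an F-BAR protein that binds phosphatases, had 54, 43 and 41 RPKM untreated and 90, 92 and 91 RPKM with ATRA, a rise of 0.99 log2 units (SE 0.09, adjusted p = 3e-05 from limma). VAV1, a guanine nucleotide exchange factor, rose by 0.46 log2 units (SE 0.06, adjusted p = 0.000352 from limma), and LAT2, a membrane scaffold of myeloid and B cells, by 0.52 (SE 0.08, adjusted p = 0.000855 from limma). SH3BP2 had 2 RPKM in each untreated library and 4, 5 and 5 RPKM with both, a log2 difference of 1.18 (SE 0.18).

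**Figure D4:**
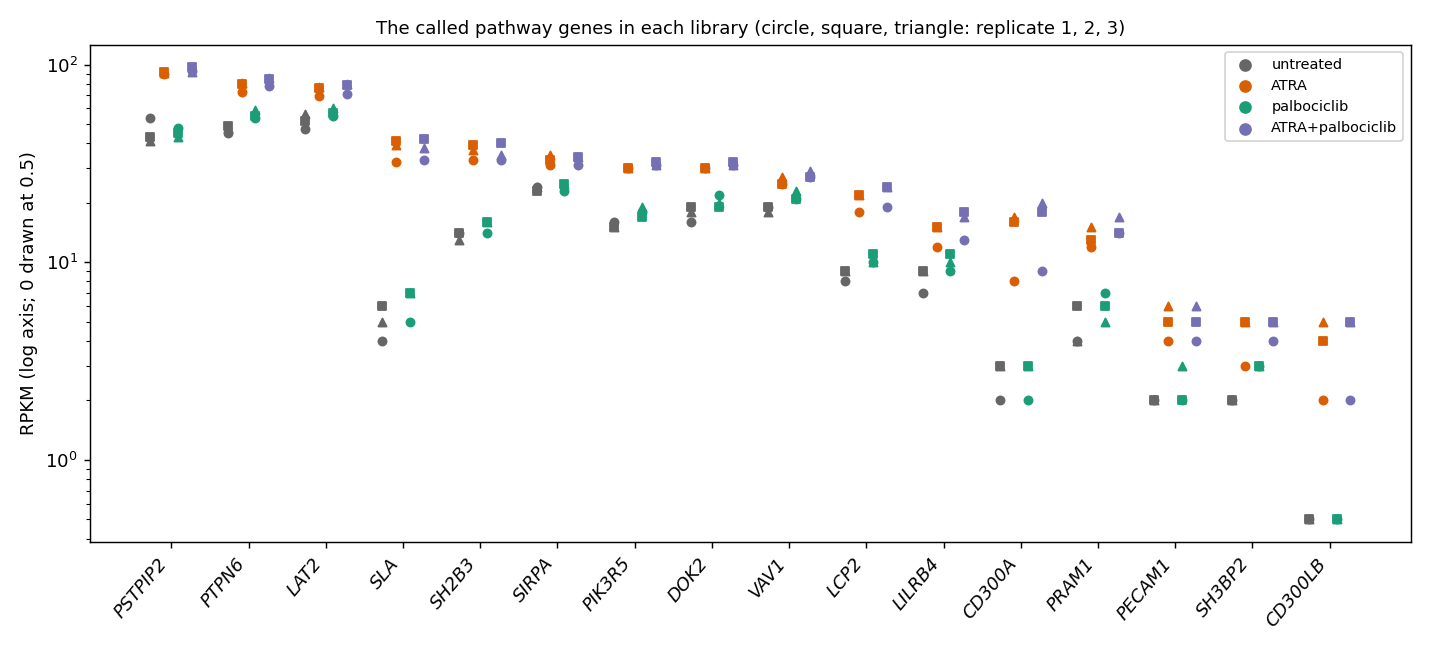
RPKM (y axis, log axis, values of 0 drawn at 0.5) of the 16 called pathway genes (x axis) in each library, with colours for the 4 groups and a circle, square and triangle for replicates 1, 2 and 3. SLA goes from 4 to 6 RPKM untreated to 32 to 41 with ATRA, PSTPIP2 from 41 to 54 to 90 to 92, and palbociclib libraries lie near the untreated ones.

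With 1 library left out at a time, 7 of the 12 ATRA calls (DOK2, LCP2, PIK3R5, PSTPIP2, PTPN6, SH2B3 and SLA) were kept in all 12 fits, and without ATRA replicate 2 the count fell to 7. CD300LB, LAT2, PRAM1, SIRPA and VAV1 were lost in at least 1 of them. LAT2 was kept in 1 of 12 and reached an adjusted p of 0.00583 from limma. Of the 16 calls with the combination 10 were kept in every fit. CD300A, LILRB4, PECAM1, SH3BP2, SIRPA and LAT2 were not, and the count fell to 10 without untreated replicate 1, untreated replicate 2, or replicate 2 or 3 of the combination.

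Against palbociclib alone, the combination raised 11 of the 64 pathway genes and lowered 0 (9 without CD300A and CD300LB), with SLA at 2.56 log2 units (SE 0.17, adjusted p = 4.16e-06 from limma) and SH2B3 at 1.22 (SE 0.09, adjusted p = 7.32e-06 from limma). Same-numbered libraries of these groups deviated together, and fitted with a replicate block the count was 19, of which 16 were higher and 3 lower, beside 6.15% of all genes. Of these, 10 were also called without the block. The next 5 genes were named after their values were seen. In the blocked fit PIK3CG was higher by 1.63 log2 units (SE 0.13, adjusted p = 5.94e-05 from limma) and APBB1IP, an adaptor of integrin signalling, by 0.89 (SE 0.08, adjusted p = 8.5e-05 from limma). CLEC12A, an inhibitory C-type lectin, was lower than with palbociclib by 0.79 (SE 0.07, adjusted p = 9.79e-05 from limma). FCGR1A, the high-affinity IgG receptor that uses FCER1G, was lower by 0.55 (SE 0.07, adjusted p = 0.000529 from limma). The phosphatase PTPRE was lower by 0.59 (SE 0.07, adjusted p = 0.000561 from limma). FCGR1A had 12, 12 and 13 RPKM untreated, 16, 14 and 14 with palbociclib and 11, 9 and 10 RPKM with both. PTPRE had 5, 7 and 8 RPKM untreated, 6, 10 and 11 with palbociclib and 4, 6 and 8 RPKM with both. Its libraries with both thus overlapped the untreated ones. Without the block the count was 5 without replicate 2 of the combination, 6 without its replicate 3 or palbociclib replicate 2, and 7 without palbociclib replicate 1 or 3. Between the combination and ATRA the libraries of 3 pathway genes, DOK2, PIK3R5 and HCLS1 (the last named after its values were seen), did not overlap and were higher with both, beside 3.39% of all genes. For the departure from additivity 0 of 64 passed in limma, 2 had an unadjusted p below 0.05 (9 with a replicate block), and the median was -0.08 log2 units.

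For FGR and LYN, which had the largest ratios of group means, the genes with the most similar pattern were found by Pearson's r on log2(RPKM + 0.1) over the 12 libraries, as a description. The 12 points fall into libraries with and without ATRA, which sets most of r. For FGR these were KANSL3 (r = 0.993), MYADM (0.990), CTNNB1 (0.989), CXCL8 (0.985) and TBL2 (0.985). Their size of change differed. CXCL8, a neutrophil chemokine, went from a mean of 12.7 RPKM untreated to 59.3 with ATRA, and CTNNB1 (beta-catenin) from 28.0 to 38.7 RPKM. For LYN they were the chemokine receptor CCR1 (r = 0.994), SLA (0.994), SH2B3 (0.994), ARHGEF3 (0.994) and SLC43A2 (0.993). CCR1 had a mean of 4.0 RPKM untreated, 21.7 with ATRA, 4.0 with palbociclib and 22.3 RPKM with both.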

How the data were processed

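RNA sequencing of 12 HL-60 libraries was used, with groups and replicate numbers taken from the sample labels. The authors prepared poly(A) libraries (TruSeq), used HISAT2 for mapping to hg38 and htseq-count in its default settings for counting per gene, and deposited score values that are RPKM rounded by the authors to whole numbers. No count model was used. Depth per library was not given in the table, while the study's methods state an average over samples. Whether the kit marked strand was not given in the sources used here.

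In limma 3.58.1 (R 4.3.3), group means were fitted to log2(RPKM + 0.1) using all 12 libraries and eBayes moderation with a trend, for the 7820 genes with at least 5 RPKM in at least 3 libraries. P-values were Benjamini-Hochberg adjusted within each comparison, and genes were called below 0.001. Python 3.11.15 was used for tables and plots. The script was tested on simulated data. The 9 genes, the pathway lists, the filter and the threshold were chosen with earlier results of these data known. Other pathway genes named are those called against untreated cells, at most 6 per list by size of change, with any other gene named after its values were seen. VAV1 and LAT2 were named beyond that limit to complete the calls of their list.

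The labels do not say whether replicates were separate cultures, so p-values measure the spread between these libraries, which may be technical. Deviations of same-numbered libraries from their group means correlated at 0.782 to 0.908 for ATRA with the combination, at 0.497 to 0.751 for ATRA with palbociclib, and at 0.438 to 0.702 for palbociclib with the combination. The numbers therefore paired these libraries. Between untreated and treated libraries the correlations were 0.0453 to 0.367. The replicate block gave 19 calls instead of 11 among pathway genes for the combination against palbociclib. Alternatives were other pseudocounts, filters and thresholds, median rescaling, fits of only the groups compared and leaving out each library.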

Additional observations from a re-analysis of the deposited data

How the results depend on the processing

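Among the 9 genes, leaving out 1 library at a time changed none of the counts of called genes. A fit of only the groups compared called 1 with ATRA, 1 with the combination and 0 for the combination against palbociclib, where the fit over all libraries called 2 in each. With the replicate number as a block, which did not pair untreated with treated libraries, the counts were 3 with ATRA, 1 with palbociclib and 4 with the combination, beside 9.23%, 1.06% and 15.4% of all genes. Among the other pathway genes, the block gave 21 calls with ATRA (20 higher, 1 lower) instead of 12, and 19 for the combination against palbociclib instead of 11. In the remaining comparisons the block moved no count at the threshold of 0.001 by over 1.5 times, while the pathway genes with an unadjusted p below 0.05 went from 16 to 31 with palbociclib (29.2% of all genes with the block), from 1 to 6 for the combination against ATRA and from 2 to 9 for the departure from additivity. An adjusted p below 0.05 gave 28 with ATRA (21 higher, 7 lower) and 2 with palbociclib (1 higher, 1 lower). It gave 35 with the combination (26 higher, 9 lower) and 25 for the combination against palbociclib (20 higher, 5 lower). In these comparisons 20.3%, 4.07%, 30.4% and 12.5% of all genes passed. A fit of only the groups compared gave 2, 3 and 0 for ATRA, the combination and the combination against palbociclib. With fewer libraries it has fewer degrees of freedom. A filter at 1 RPKM or no filter added 1 call with palbociclib and 1 for the departure from additivity, both PLCG1 (named after its values were seen), at 4 RPKM in every untreated library and 3 RPKM in every other one. Leaving out 1 library gave 7 to 13 calls with ATRA, 10 to 18 with the combination and 5 to 11 for the combination against palbociclib. Median rescaling turned SYK with the combination from negative (-0.05, SE 0.06) to positive, so that 9 instead of 8 of the 9 genes were positive. The library medians it uses were 3.60 or 3.71 log2 units, since the values are whole numbers. Among the other pathway genes it gave 17 calls with ATRA instead of 12 and 19 with the combination instead of 16. Against palbociclib the combination had 13 (12 higher, 1 lower) instead of 11. Of 1540 further values of single pathway genes, 1357 kept their side of the threshold, 161 were no longer past it and 22 came past it. Among values past the threshold in the main fit, 0 reversed direction. For the values not past it, direction was not compared. Whole-number values and unknown depth limit what can be seen for genes at a few RPKM, such as TYROBP.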

Other observations

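Several genes of the pathway lists stayed below the filter of 5 RPKM in 3 libraries and were not tested. SOCS3, a feedback inhibitor of cytokine receptor signalling, was listed at 0 in all untreated and palbociclib libraries and had 3, 4 and 4 RPKM with ATRA and 3, 4 and 3 RPKM with both. CLEC4D, a C-type lectin that signals through FCER1G, had 3, 2 and 3 RPKM untreated, 1 RPKM in each ATRA library, 3, 3 and 5 RPKM with palbociclib and 2, 1 and 1 RPKM with both. CD79A, the ITAM chain of the B cell receptor, was listed at 0 without ATRA and at 1 RPKM in each of the 6 libraries with it. These 3 genes were picked after their values were seen.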
